A study of Mus musculus with 9 samples.

Results

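Transcripts of 10 genes known from cell fusion and from bone-resorbing osteoclasts were followed through mouse peritoneal macrophages of 3 origins. The genes were Dcstamp, Ocstamp, Tm4sf19 and Cdh1 (surface proteins of fusing macrophages), Atp6v0d2, Ctsk, Acp5 and Car2 (the resorption apparatus), Tnfrsf11a (the receptor RANK) and Gpnmb (a lysosomal glycoprotein), 10 of the 47729 gene identifiers counted. They were chosen by symbol after their levels in these same 3 groups had been seen, so their group levels and ratios are a description and carry no test. All mice had the genotype Cx3cr1CreERT2-IRES-EYFP/+ Rosa26-stopfl-tdTomato/+, in which a tamoxifen-dependent Cre and EYFP are driven by Cx3cr1 and tdTomato appears after recombination. All were injected with IL-4 (5 µg) bound to an antibody against it (25 µg) every other day from 4 days before harvest, so no group was free of IL-4. Monocyte-derived macrophages were taken 4 days after an injection of 2 ml thioglycollate, which inflames the cavity and brings in monocytes. Converted macrophages came from mice given 2 ml of thioglycollate and kept on tamoxifen diet for 10 weeks. Resident macrophages came from mice for which the labels give no other treatment. Each group had 3 sorted libraries, and the labels give neither the age of the mice nor the gates of the sort.

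Macrophages exposed to IL-4 can fuse into multinucleated giant cells, and macrophage precursors exposed to M-CSF and the RANK ligand fuse into osteoclasts. Both programmes use the multipass membrane proteins DC-STAMP and OC-STAMP for fusion, and both use the d2 subunit of the vacuolar proton pump (V-ATPase). For the digestion of matrix they use the lysosomal enzymes cathepsin K and tartrate-resistant acid phosphatase. E-cadherin, an adhesion molecule of epithelia, is induced by IL-4 in macrophages and takes part in their fusion. Fusion was not measured in these samples, only the transcripts.

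Libraries held 15220884 to 20496258 reads in genes, and levels are read counts per 1000000 reads (CPM) on TMM-scaled library sizes. The 8 macrophage markers, among them Csf1r, Adgre1 and Lyz2, were each read in every group. They summed to 3833 to 6514 CPM in the monocyte-derived group, 6334 to 7898 in the converted and 6681 to 6999 in the resident group. Adgre1 differed most in CPM, with means of 343, 3074 and 2975 in that order. Itgam and Mertk also had lower monocyte-derived means. Lyz2 went the other way, at 1835, 575.7 and 436.1 CPM, as did Cd68, Cd14 and Fcgr1, while Csf1r was alike in all groups. Cx3cr1, the gene that drives the Cre, had 20 reads over the monocyte-derived, 6 over the converted and 10 over the resident libraries. The Y-linked gene Ddx3y had no read in monocyte-derived and 90.5 to 91.4 CPM on average elsewhere, and sex therefore cannot be told apart from origin wherever monocyte-derived libraries are compared, nor can the recent irritant. Whether the libraries of a group are separate mice is not stated, so spread and p-values cover these libraries only, and that spread may be technical. In these bulk libraries fewer cells of a type and less RNA per cell cannot be told apart. Monocyte-derived library 1 stood apart from libraries 2 and 3 for 7 of the 10 genes, as described after the group levels, where ratios without it are also given.

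The fusion genes were read in every monocyte-derived library, and in the other groups Dcstamp, Ocstamp and Tm4sf19 were close to or at 0 and Cdh1 kept a low level. Dcstamp encodes DC-STAMP, which is required for osteoclasts and giant cells to fuse (GRCm38 chromosome 15, 39745930 to 39760938). It had 12.5, 51.7 and 55.4 CPM in monocyte-derived libraries 1, 2 and 3, 0.0498, 0.0525 and 0 in converted and 0.110, 0.210 and 0.0978 in resident libraries. All monocyte-derived libraries lay above all others, and the 3 converted libraries held 2 reads of this gene in all. The mean of 39.9 ± 23.8 CPM (SD, n = 3) was 287-fold that of resident libraries. Pooled reads put it 1097-fold above the converted group, with a 95% exact counting interval of 303.2 to 9063 that covers counting error only. Ocstamp encodes OC-STAMP, the partner protein in the same step (chromosome 2, 165393760 to 165400405). It had 55.8, 52.2 and 58.8 CPM in the monocyte-derived group, 0.0498, 0.105 and 0.337 in the converted and 0.110, 0 and 0.489 in the resident group. Here the monocyte-derived libraries were alike, within 1.13-fold of each other, unlike those of Dcstamp. Their mean of 55.6 ± 3.33 CPM was 339-fold that of converted and 278-fold that of resident libraries. These ratios rest on 9 and 12 reads, and their log2 values of -8.40 and -8.12 became -9.49 without converted library 3 and -9.98 without resident library 3; without resident library 2 the second was -7.54.

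Tm4sf19 encodes a 4-pass membrane protein found in multinucleating osteoclasts (chromosome 16, 32400506 to 32408227). It had 6.55, 48.0 and 28.0 CPM in monocyte-derived libraries and no read in any of the 6 converted and resident libraries. Against a floor of 3 reads over a group, its mean of 27.5 ± 20.8 CPM was at least 523-fold higher than in converted and at least 530-fold higher than in resident libraries, and the log2 bounds of -9.03 and -9.05 were -8.36 and -8.38 without monocyte-derived library 2. Cdh1 encodes E-cadherin (chromosome 8, 106603351 to 106670246). It had 608.1, 314.5 and 323.7 CPM in the monocyte-derived group, 7.37, 11.1 and 11.9 in the converted and 14.0, 18.1 and 20.2 in the resident group. Unlike the other fusion genes it remained readable in every library, with 571 reads over the converted and 1012 over the resident group. Its monocyte-derived mean of 415.4 ± 166.9 CPM was 41.1-fold the converted and 23.9-fold the resident mean. The 9 epithelial and mesothelial markers summed to 0.799 to 3.81 CPM in the monocyte-derived group, 1.63 to 2.36 in the converted and 6.05 to 9.29 in the resident group. Epcam had 22 reads over the monocyte-derived group beside 21861 of Cdh1. It had 38 beside 571 over the converted and 319 beside 1012 over the resident group. The part of such cells in the Cdh1 level was not tested.

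**Figure D1:**
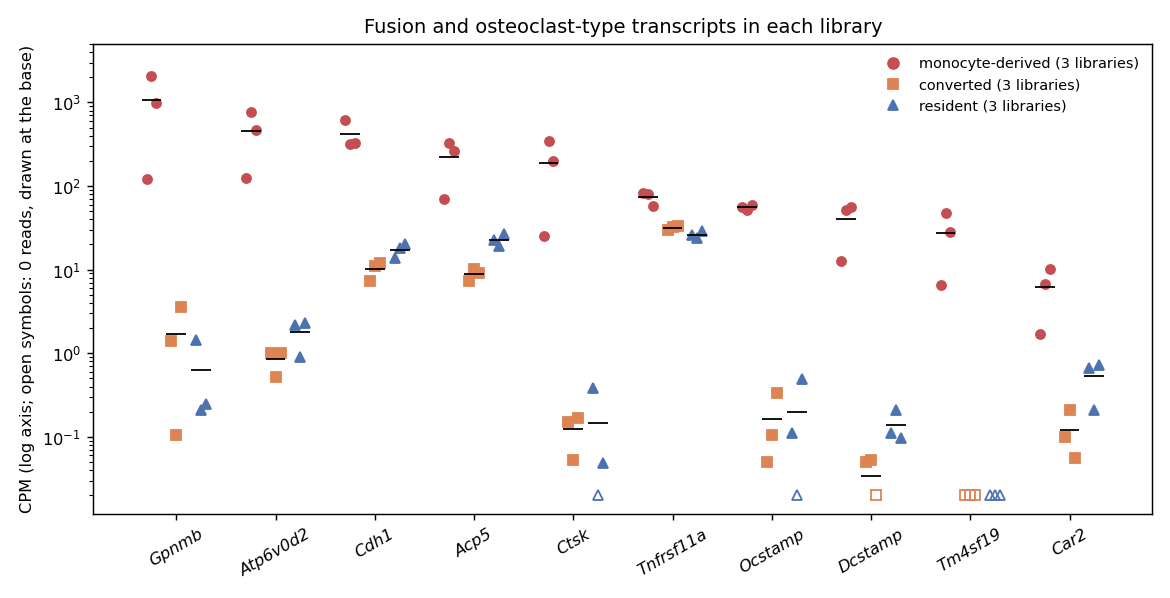
CPM (log axis) of the 10 transcripts in each of the 9 libraries, ordered by their monocyte-derived mean. Points are libraries, black lines are group means, and open symbols drawn at the base are libraries with 0 reads. For each gene the 3 monocyte-derived libraries lie above the 6 others, and Tm4sf19 has no read outside them.

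Genes of the resorption apparatus were read in every monocyte-derived library and were far lower in the other groups, with Acp5 keeping the highest level there. Atp6v0d2 encodes the d2 subunit of the proton pump (chromosome 4, 19876841 to 19922605). It had 126.2, 761.1 and 472.7 CPM in the monocyte-derived group, 0.996, 0.525 and 1.01 in the converted and 2.20, 0.891 and 2.30 in the resident group. The mean of 453.3 ± 317.9 CPM was 537-fold the converted and 252-fold the resident mean, with log2 values of -9.07 and -7.98 that were -8.47 and -7.38 without monocyte-derived library 2. Ctsk encodes cathepsin K, the collagen-cleaving protease of osteoclasts (chromosome 3, 95499256 to 95509362). It had 25.3, 341.2 and 199.9 CPM in the monocyte-derived group, 0.149, 0.0525 and 0.169 in the converted and 0.385, 0 and 0.0489 in the resident group. The lowest monocyte-derived library was 13.5-fold below the highest and still far above all 6 others, which held 7 and 8 reads per group. The mean ratios were 1529-fold and 1306-fold. Their log2 values of -10.58 and -10.35 became -9.83 and -9.61 without monocyte-derived library 2, and without resident library 1, which held 7 of the 8 resident reads, the second was -12.91.

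Acp5 encodes tartrate-resistant acid phosphatase, the enzyme by which osteoclasts are stained (chromosome 9, 22126727 to 22135711). It had 70.3, 326.0 and 265.0 CPM in the monocyte-derived group, 7.37, 10.2 and 9.22 in the converted and 22.4, 19.2 and 26.4 in the resident group. It thus kept a level in every group, with a monocyte-derived mean of 220.4 ± 133.5 CPM, 24.7-fold the converted and 9.74-fold the resident mean. Car2 encodes carbonic anhydrase II, which supplies protons for the acid that dissolves bone mineral (chromosome 3, 14886273 to 14900770). It had 1.70, 6.64 and 10.2 CPM in the monocyte-derived group, 0.0996, 0.210 and 0.0562 in the converted and 0.660, 0.210 and 0.734 in the resident group. This was the lowest of the 10 in monocyte-derived libraries, with 32, 115 and 157 reads. Its mean ratios were 50.6-fold and 11.5-fold, on 7 converted and 31 resident reads. The log2 value of the first, -5.66, was -6.31 without converted library 2. Red blood cells also hold carbonic anhydrase II, and the 7 erythroid markers summed to 20.8, 0.982 and 7.05 CPM in monocyte-derived libraries 1, 2 and 3; their part in the Car2 level was not tested.

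Gpnmb had the highest mean CPM of the 10 genes in monocyte-derived libraries and Tnfrsf11a the smallest ratios to the other groups. Gpnmb encodes a transmembrane glycoprotein of lysosomes and the cell surface, also called osteoactivin, and is a known target of the transcription factor MITF (chromosome 6, 49036546 to 49070929). It had 122.6, 2065 and 980.9 CPM in the monocyte-derived group, 1.39, 0.105 and 3.54 in the converted and 1.43, 0.210 and 0.244 in the resident group. Its mean of 1056 ± 973.3 CPM was the highest of the 10, 629-fold the converted and 1683-fold the resident mean. Those log2 values, -9.30 and -10.72, were -8.36 and -9.78 without monocyte-derived library 2, -10.46 for the first without converted library 3 and -12.18 for the second without resident library 1. Tnfrsf11a encodes RANK, the receptor that starts osteoclast formation (chromosome 1, 105780718 to 105847981). It had 82.9, 79.8 and 58.4 CPM in the monocyte-derived group, 29.5, 32.0 and 33.7 in the converted and 26.2, 23.6 and 29.1 in the resident group. The groups did not overlap, but the ratios were the smallest of the set, 2.32-fold and 2.80-fold, so RANK transcript was present in all 9 libraries at 450 reads or more. Its ligand Tnfsf11 had no read in any library, and the decoy receptor Tnfrsf11b had at most 0.0385 CPM as a group mean.

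In all, 10 of 10 genes had every converted library below every monocyte-derived library, where 27.7% of the 13223 genes tested did so, and 10 of 10 had every resident library below, where 28.9% did. The genes were chosen on these levels, so nothing is read from these counts. All 10 passed the filter on low counts, for which their monocyte-derived reads alone were enough. Without monocyte-derived library 1 the ratios to converted libraries were 906-fold for Gpnmb, 2191-fold for Ctsk, 731-fold for Atp6v0d2, 33.1-fold for Acp5, 68.9-fold for Car2 and at least 722-fold for Tm4sf19, and those for Cdh1, Ocstamp and Tnfrsf11a were 31.5-fold, 338-fold and 2.18-fold. To resident libraries they were 2426-fold for Gpnmb, 1872-fold for Ctsk, 343.5-fold for Atp6v0d2, 13.1-fold for Acp5, 15.7-fold for Car2, 385-fold for Dcstamp and at least 732-fold for Tm4sf19, and 18.3-fold, 278-fold and 2.63-fold for Cdh1, Ocstamp and Tnfrsf11a. For Dcstamp, with 2 converted reads, the log2 ratio of means to converted libraries was -10.19 with library 1 and -10.62 without it.

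Per kilobase of exon, which allows genes to be compared, the monocyte-derived means were ordered as follows. Atp6v0d2 (166.9 ± 117.1 CPM per kilobase, SD, n = 3), Gpnmb (162.1 ± 149.4), Ctsk (124.9 ± 104.7), Acp5 (108.6 ± 65.8) and Cdh1 (90.8 ± 36.5) were highest. These SDs are between libraries and do not measure differences between genes read in the same libraries. Atp6v0d2 lay above Ctsk and Acp5 in every monocyte-derived library, and Gpnmb lay above Ctsk in each. Tm4sf19 (21.9 ± 16.5), Ocstamp (15.2 ± 0.910), Dcstamp (14.96 ± 8.91) and Tnfrsf11a (12.3 ± 2.23) followed, and Car2 was last at 2.55 ± 1.75. In other places the order depended on the library. In library 1 Cdh1 was first at 132.9 CPM per kilobase, and Gpnmb at 18.8 and Ctsk at 16.7 lay beside Ocstamp at 15.3 and Tnfrsf11a at 13.9, while in library 2 Gpnmb was first at 317.0, with Cdh1 at 68.8. In converted libraries the order was led by Tnfrsf11a (5.30 ± 0.352), Acp5 (4.39 ± 0.704) and Cdh1 (2.21 ± 0.527), and in resident libraries by Acp5 (11.2 ± 1.77), Tnfrsf11a (4.39 ± 0.465) and Cdh1 (3.81 ± 0.690). The other 7 had means below 0.7 CPM per kilobase in both.

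The d2 subunit was compared with its widely expressed paralogue, since each pump complex holds 1 d subunit. Atp6v0d1 was 101.9 ± 18.4 CPM per kilobase in the monocyte-derived group, 110.0 ± 8.32 in the converted and 104.4 ± 2.19 in the resident group, and edgeR's quasi-likelihood test gave adjusted p = 0.474 and 0.834 against the monocyte-derived group; without monocyte-derived library 2 the first was 0.0346, at a log2 difference of 0.26. The share of d2 among both transcripts, per kilobase, was 35.0%, 69.7% and 64.1% in monocyte-derived libraries. In converted libraries it was 0.323%, 0.192% and 0.319%, and in resident libraries 0.752%, 0.316% and 0.816%. The d2 form was thus the more abundant of the pair in libraries 2 and 3 of the monocyte-derived group and a trace elsewhere. Among 6 cathepsins (B, D, L, S, Z and K), cathepsin K made up 0.400%, 2.34% and 1.77% of the transcripts per kilobase in monocyte-derived libraries and at most 0.00634% in the others.

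**Figure D2:**
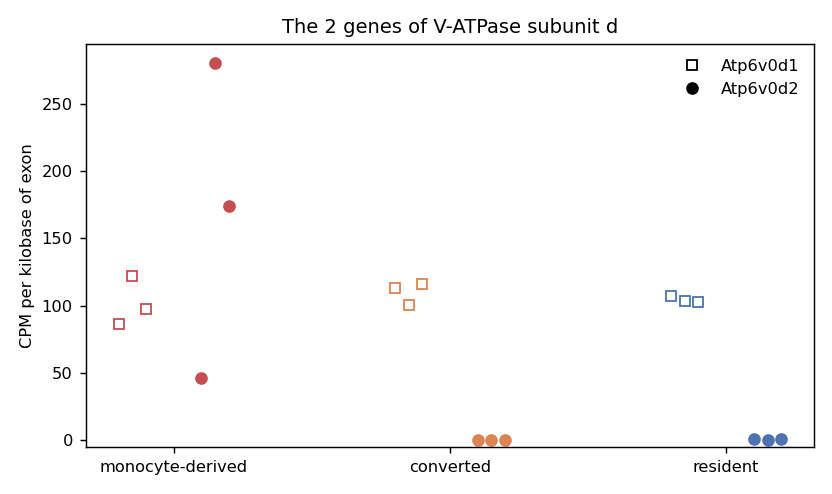
CPM per kilobase of exon of Atp6v0d1 (open squares) and Atp6v0d2 (filled circles) in the 3 libraries of each group. Atp6v0d1 stays near 100 in all groups, while Atp6v0d2 spans 46.5 to 280.2 in monocyte-derived libraries and lies near 0 in the others.

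Promoter windows of 300 bases (250 before to 50 after a RefSeq start, GRCm38.p6) were matched for 5 of the 10 genes, Acp5, Ctsk, Gpnmb, Tm4sf19 and Tnfrsf11a, 7 windows in all. They were searched on both strands for the E-boxes CACGTG and CATGTG, to which MITF and its relatives bind, for the AP-1 motif TGANTCA, the STAT6-type motif (TTC and GAA with 4 bases between them) and the PU.1 core GAGGAA, none of which overlapped another in these windows. The windows of Ctsk and Gpnmb and 1 of the 3 windows of Acp5 are shown because they held a match, and the others held none. Capitals mark the matches, and sequences run 5′ to 3′ on the gene's strand.
Ctsk (chr3:95498960-95499259, plus strand): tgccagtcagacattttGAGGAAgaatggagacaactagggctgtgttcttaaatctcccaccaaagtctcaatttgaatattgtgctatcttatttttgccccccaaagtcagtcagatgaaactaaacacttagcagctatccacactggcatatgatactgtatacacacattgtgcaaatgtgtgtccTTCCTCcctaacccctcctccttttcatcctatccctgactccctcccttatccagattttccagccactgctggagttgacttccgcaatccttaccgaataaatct
Gpnmb (chr6:49036268-49036567, plus strand): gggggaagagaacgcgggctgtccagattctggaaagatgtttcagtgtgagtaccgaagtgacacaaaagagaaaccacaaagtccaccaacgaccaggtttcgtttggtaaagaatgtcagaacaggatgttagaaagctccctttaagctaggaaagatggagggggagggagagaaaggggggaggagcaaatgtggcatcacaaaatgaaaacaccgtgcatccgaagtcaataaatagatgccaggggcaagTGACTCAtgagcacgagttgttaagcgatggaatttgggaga
Acp5 (chr9:22130549-22130848, minus strand): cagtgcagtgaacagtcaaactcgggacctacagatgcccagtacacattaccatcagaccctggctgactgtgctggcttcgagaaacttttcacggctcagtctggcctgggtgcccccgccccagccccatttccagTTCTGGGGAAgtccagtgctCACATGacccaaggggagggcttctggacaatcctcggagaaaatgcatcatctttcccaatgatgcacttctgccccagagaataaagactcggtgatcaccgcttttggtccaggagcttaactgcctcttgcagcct
Ctsk held the PU.1 core at 2 places, at -233 on the gene's strand and at -58 on the other. Gpnmb held an AP-1 motif at 9 bases after the start, and this Acp5 window a STAT6-type motif at -110 and the E-box CATGTG on the other strand at -90. Of 32851 windows of the same length 28.3% hold GAGGAA, 7.81% TGANTCA, 6.95% the STAT6-type motif, 14.2% CATGTG and 7.15% CACGTG. The windows of Tm4sf19 and Tnfrsf11a held none of these motifs, and no match shows that a factor was bound.

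Within the monocyte-derived group the 10 genes split by how library 1 compared with libraries 2 and 3. Gpnmb, Ctsk, Tm4sf19, Atp6v0d2, Car2, Acp5 and Dcstamp were all lowest in library 1, where Gpnmb was 16.8-fold below library 2 and 8-fold below library 3, and Ctsk 13.5-fold and 7.92-fold below. For the other 5 the gap to the higher of both libraries ran from 4.42-fold (Dcstamp) to 7.33-fold (Tm4sf19). Library 2 was highest for Gpnmb, Ctsk, Tm4sf19, Atp6v0d2 and Acp5, and library 3 for Car2 and Dcstamp. Cdh1 had the opposite order, with library 1 at 1.93 and 1.88 times libraries 2 and 3. Ocstamp and Tnfrsf11a differed little, by 1.13-fold and 1.42-fold between their highest and lowest library. The transcripts of DC-STAMP and OC-STAMP, partners in fusion, had different orders by library: per kilobase Dcstamp was at 4.70 beside 15.3 for Ocstamp in library 1, at 19.4 beside 14.3 in library 2 and at 20.8 beside 16.1 in library 3.

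**Figure D3:**
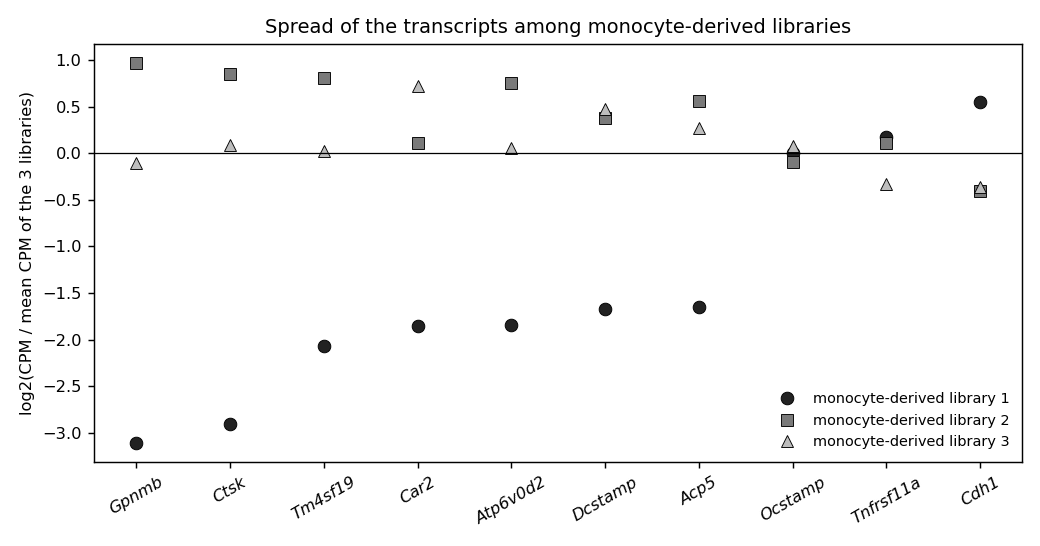
log2 of the CPM in each monocyte-derived library over the mean of the 3 libraries, for the 10 transcripts ordered by library 1. Library 1 (circles) is lowest for 7 transcripts, from Gpnmb at -3.11 to Acp5 at -1.65, lies near the mean for Ocstamp and Tnfrsf11a, and is highest for Cdh1 at 0.55.

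For scale, 9340 tested genes had a mean of at least 5 CPM in monocyte-derived libraries, and 38.8% of them were lowest in library 1. The median gene differed 1.30-fold between its highest and lowest monocyte-derived library, 3.48% of genes differed by over 3-fold, and 7 of these 10 genes did. The same median was 1.17-fold in converted and 1.123-fold in resident libraries. For the mean of libraries 2 and 3 over library 1, the median of the 9340 genes was 1.004. By this measure 455 of the 9340 were lowest in library 1 by over 2-fold, and the 2-fold counts below use it too. Of 16 further V-ATPase subunits 15 were lowest in library 1, mostly by little: the mean of libraries 2 and 3 was 1.41 times library 1 in the median, and 1 subunit passed 2-fold, Atp6v0a1 at 192.1, 546.6 and 355.6 CPM. Of 9 paralogues or like-named genes of the 10 genes 8 were lowest there, 4 of them by over 2-fold. Their median was 1.76, and the cathepsin gene Ctsl had 861.2, 2985 and 1689 CPM. Of 19 fusion and adhesion genes 12 were lowest there, 2 of them by over 2-fold, among them the scavenger receptor gene Cd36 at 336.1, 1469 and 895.9 CPM, chosen after its values were seen. Ccr2, the chemokine receptor of recruited monocytes, had the opposite order at 1343, 463.1 and 660.9 CPM, and the macrophage marker list summed to 3833, 6514 and 5371. Library 1 did not stand apart in depth, at 17301844 reads in genes beside 17940140 and 15220884, or in mitochondrial reads, at 0.630% beside 0.384% and 0.882%. It had the largest share of reads in no gene, at 5.07% beside 4.02% and 4.36%. A chi-square of the counts of library pairs, divided by its degrees of freedom, was 92.8 for libraries 1 and 2. For libraries 1 and 3 it was 66.3, and for libraries 2 and 3 it was 31.9. The part of these differences in the spread of the 10 genes was not tested.

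Converted and resident libraries were compared to describe the levels of the 10 genes outside the monocyte-derived group. By the labels only the converted mice had thioglycollate and tamoxifen diet, which cannot be told apart from origin in this comparison. Cdh1 and Acp5 were lower in every converted than in every resident library: the converted mean was 0.581 times the resident mean for Cdh1 (10.1 ± 2.41 beside 17.4 ± 3.15 CPM) and 0.394 times for Acp5 (8.92 ± 1.43 beside 22.6 ± 3.60). Dcstamp also did not overlap, on 2 and 8 reads, too few to place either group. The reverse held for Tnfrsf11a, at 31.7 ± 2.11 beside 26.3 ± 2.79 CPM or 1.21-fold, with the converted libraries at 29.5 to 33.7 and the resident ones at 23.6 to 29.1; with library sizes left unscaled the groups overlapped. Atp6v0d2 had 0.844 ± 0.277 beside 1.80 ± 0.785 CPM and Car2 0.122 ± 0.0793 beside 0.534 ± 0.284, and both overlapped. Resident library 2 set that overlap for Atp6v0d2, at 0.891 CPM. For Car2, converted library 2 and resident library 2 met at 0.210 CPM, on 4 reads each. Without resident library 2, 5 genes were lower in every converted library in place of 3. Without converted library 2 the log2 ratio of Car2 was -2.78 in place of -2.13. Gpnmb overlapped, at 1.68 ± 1.74 beside 0.628 ± 0.694 CPM, and its log2 ratio of 1.42 was 0.26 without converted library 3 and 2.89 without resident library 1. Ctsk and Ocstamp overlapped on 7 to 12 reads a group. The ratios of Ctsk and Ocstamp changed direction when 1 library was left out: their log2 values of -0.23 and -0.28 became 2.34 without resident library 1 and 0.14 without converted library 2 for Ctsk, and 1.58 without resident library 3 and 0.15 without converted library 1 for Ocstamp. Without resident library 1, 2 genes were higher in every converted library, Ctsk beside Tnfrsf11a. Of all tested genes 17.7% were lower and 19.6% higher in every converted than in every resident library, so 3 lower and 1 higher of 10 is near that background.

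**Figure D4:**
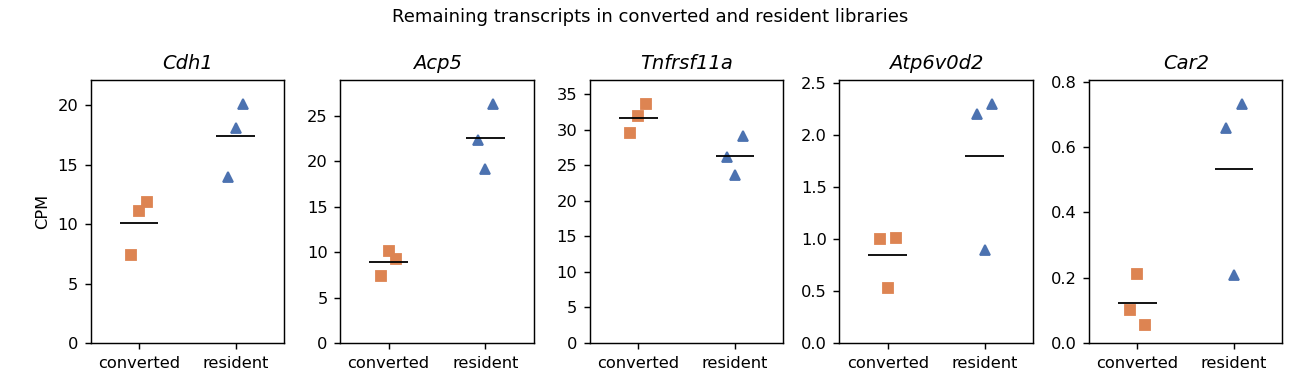
CPM of 5 transcripts in the 3 converted (squares) and 3 resident (triangles) libraries, each on its own axis from 0, with group means as lines. Cdh1 and Acp5 are higher in all resident libraries, Tnfrsf11a is higher in all converted libraries, and Atp6v0d2 and Car2 overlap. Atp6v0d2 overlaps because of 1 low resident library, and for Car2 converted library 2 and resident library 2 both lie at 0.210 CPM.

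Transcripts of other cells moved with some of these values. The 6 B-cell markers summed to 12.4 to 31.8 CPM in the monocyte-derived group, 38.2 to 92.4 in the converted and 586.7 to 777.0 in the resident group. They were highest in resident libraries, where Cdh1 and Acp5 were above their converted level, and their part in that difference was not tested. The 5 dendritic-cell markers summed to 15.9 to 56.5, 20.5 to 79.9 and 165.8 to 183.2 CPM, a sum carried by Cd209a, with means of 20.1, 48.5 and 171.8 CPM. The other members of that list, Flt3, Zbtb46, Xcr1 and Clec9a, had their highest mean in the monocyte-derived group, Flt3 at 8.23 CPM beside 0.257 in converted and 0.532 in resident libraries. The 7 neutrophil markers summed to 11.8 to 46.8, 1.12 to 1.68 and 0.367 to 2.25 CPM. That sum was carried by S100a8 and S100a9, with monocyte-derived means of 10.54 and 12.35 CPM. Retnlg was also highest in the monocyte-derived group. Ly6g went the other way, with 4 reads there, 31 in converted and 20 in resident libraries, and Camp, Ngp and Ltf had at most 18 reads in a group. The 4 NK-cell markers summed to 14.7 to 87.3, 1.39 to 1.94 and 13.1 to 20.7 CPM. Both sums were highest in monocyte-derived library 3, as were Dcstamp, Car2 and Ocstamp. Gpnmb, Ctsk, Atp6v0d2, Acp5 and Tm4sf19 were highest in library 2. The part of these cells in the levels of the 10 genes was not tested. Mast-cell markers summed to 6.81 to 14.8, 0.996 to 2.78 and 7.24 to 11.6, and the T-cell, eosinophil, fibroblast and platelet lists stayed under 20 CPM in every library, with the eosinophil genes Epx and Prg2 at 0 throughout and no B-cell or dendritic-cell marker at 0 in any group.

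Other genes of the 2 programmes, 119 in 9 lists and none among the 10 above, were tested with edgeR's quasi-likelihood test, with Benjamini-Hochberg adjustment over all 13223 genes. Of the 96 that passed the filter, 49 were lower and 10 higher in converted than in monocyte-derived libraries at an adjusted p under 0.05, where 24.9% of all genes were lower and 25.8% higher. In resident libraries 55 were lower and 10 higher than in monocyte-derived ones, where 24.9% and 25.7% of all genes were. Both comparisons share the monocyte-derived libraries. The lists were chosen with earlier results of these data known, so no excess over the share of all genes is read from these counts. The median log2 change of the 96 was -0.43 in each, beside -0.01 and 0.00 for all genes. The higher count of 10 in converted libraries was 5 without converted library 2 and 6 without converted library 3. Without monocyte-derived library 1 the lower counts were 60 and 61, the top of their ranges. With any 1 library left out they ran from 41 to 60 in converted and from 45 to 61 in resident libraries.

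Csf1r, the M-CSF receptor, had 1094 ± 55.8, 1119 ± 42.8 and 1104 ± 37.7 CPM in monocyte-derived, converted and resident libraries (adjusted p = 0.748 and 0.900). Of 11 tested genes of RANK and M-CSF signalling 3 rose and 3 fell in each comparison, shares close to those of all genes, and without monocyte-derived library 2 5 rose in resident libraries. In converted and resident libraries Csf1 fell by 1.26 and 0.90 on the log2 scale (adjusted p = 0.000536 and 0.00366), and the kinase gene Tec by 1.07 and 1.29 (0.000131 and 4.15e-05). Plcg2, a phospholipase of receptor signalling, rose 1.46-fold and 1.49-fold (0.00105 and 0.000810). The adaptor Traf2 rose 1.34-fold and 1.41-fold (0.0178 and 0.00822), a call for converted libraries that was 0.0624 and 0.0519 without converted libraries 1 and 2, where 1 of the 11 genes was called higher, and 0.0665 with library sizes left unscaled. Among receptors and adaptors that signal beside RANK, 2 of 3 tested fell. Trem2 had 162.6, 284.1 and 215.5 CPM in monocyte-derived libraries and fell 4.54-fold and 4.42-fold (log2 -2.18 ± 0.25 and -2.14 ± 0.25 SE, adjusted p = 9.18e-05 and 0.000102). Fcer1g, which encodes the Fc receptor gamma chain, fell 2.38-fold and 2.22-fold (4.23e-06 and 7.32e-06), while Tyrobp (DAP12) had 584.7, 564.5 and 612.5 CPM as group means (0.816 and 0.756). Oscar was near 0 and Siglec15 had no read.

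Among the transcription factors of osteoclasts some rose and more fell. Nfatc1, the master factor of osteoclast differentiation, had 42.4 ± 6.47 CPM in the monocyte-derived group, 50.9 ± 1.49 in the converted and 61.8 ± 5.27 in the resident group. It rose 1.46-fold in resident libraries (adjusted p = 0.00313) and had adjusted p = 0.0853 in converted ones, where it was 0.0104 without monocyte-derived library 1. Mitf had 29.0, 43.3 and 28.3 CPM in monocyte-derived libraries 1, 2 and 3. It was 1.40-fold and 1.37-fold lower in the other groups (adjusted p = 0.0306 and 0.0418), and these calls ended without monocyte-derived library 2 (0.0914 and 0.162). The first also ended without converted library 1 or 2 (0.0933 and 0.1003) and the second when any converted library (0.0588, 0.0548 and 0.0505 for libraries 1, 2 and 3) or any resident library (0.0927, 0.0856 and 0.129) was left out; the replicate number as a block gave 0.0514 and 0.0640 and a fit of each pair of groups 0.0811 and 0.0714. Its relative Tfeb, a regulator of lysosomal genes, fell 3.34-fold and 2.77-fold (0.000131 and 0.000361), and the AP-1 genes Fosl2 and Jdp2 fell 3.83-fold and 3.41-fold in converted libraries (4.26e-06 and 3.09e-05). Fos rose 5.48-fold in resident libraries (7.67e-05), where the B-cell marker sum was also highest; its part was not tested. Of 14 such factors 7 fell and 1 rose in converted libraries, and 9 fell and 2 rose in resident ones; the 9 became 5, 4, 5 and 5 when monocyte-derived library 2 or any of resident libraries 1, 2 and 3 was left out. Fos, the factor that rose in converted libraries (0.0340), lost its call when monocyte-derived library 2 or either of converted libraries 1 and 3 was left out. Among 4 repressors of osteoclast formation Irf8 fell 11.3-fold and 2.41-fold (4.09e-07 and 0.000163), Bcl6 3.10-fold and 2.31-fold (0.000383 and 0.00217), and Zbtb7a rose 1.31-fold in resident libraries (0.0128, and 0.0505 without resident library 1).

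Adhesion and fusion genes outside the set fell for 12 of 19 tested in converted and 15 of 19 in resident libraries. Anxa5, a phosphatidylserine-binding protein, fell 15.4-fold and 14.2-fold (adjusted p = 1.59e-07 and 2.03e-07), from 669.3 ± 160.4 to 43.5 ± 1.48 and 47.0 ± 5.23 CPM. The gelatinase gene Mmp9 fell 10.1-fold and 21.1-fold (0.000672 and 0.000224), from a level of 6.42 ± 3.70 CPM. In the other direction Elmo1, which acts in engulfment, rose 1.66-fold and 1.43-fold (0.000126 and 0.00115). The tetraspanin gene Cd9 rose 1.60-fold and 1.75-fold (0.0397 and 0.0196); its first call ended when any converted library (0.0634, 0.0513 and 0.123 for libraries 1, 2 and 3) or any resident library (0.0556, 0.0550 and 0.0554) was left out, with no filter (0.125) and in the fit of both groups alone (0.0796), and its second without resident library 1 (0.0503) and with no filter (0.0768). The number that rose, 3 in converted and 2 in resident libraries, was 1 in converted libraries without converted library 2 or resident library 2 and 1 in resident libraries without resident library 1.

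Of the pump and acid genes, 10 of 16 other V-ATPase subunits fell in converted and 9 in resident libraries. Without monocyte-derived library 2, 1 subunit rose in converted libraries, Atp6v0d1 as given above. Atp6v0a1 fell 3.31-fold and 3.66-fold (adjusted p = 0.00132 and 0.000869) and Atp6v1c1 2.67-fold and 2.77-fold (0.000107 and 8.49e-05), in contrast to the 537-fold and 252-fold ratios of Atp6v0d2. Of 9 tested resorption genes 5 fell in converted and 6 in resident libraries. Mmp14, a membrane-bound collagenase, fell 5.41-fold and 6.39-fold (1.27e-05 and 7.32e-06), and the late endosome gene Rab7 1.73-fold and 1.75-fold (9.29e-06 and 8.23e-06). Plekhm1, which acts in lysosome traffic, fell 1.83-fold in resident libraries (0.0208), and this call ended without monocyte-derived library 2 or 3 (0.0819 and 0.0530), without resident library 1 or 2 (0.0521 and 0.0716) and with no filter (0.103). Snx10 rose 1.22-fold in converted libraries (0.0181), which was 0.0579 without monocyte-derived library 3, 0.0532 and 0.0689 without converted libraries 2 and 3 and 0.0623 with library sizes left unscaled. Tcirg1, the osteoclast-type a3 subunit of the pump, fell 1.54-fold in converted libraries (0.0280), with 0.0912 and 0.0803 when monocyte-derived library 2 or library 3 was left out, 0.0824, 0.0794 and 0.0515 when converted library 1, 2 or 3 was, 0.1003 with no filter and 0.0685 in the fit of both groups alone. In resident libraries Tcirg1 had 0.0921, with 0.000138 without monocyte-derived library 1 and 0.0436 with library sizes left unscaled. The 5 resorption genes that fell in converted libraries were 3 when either of monocyte-derived libraries 2 and 3, or of converted libraries 1 and 2, was left out.

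The next list held paralogues of the 10 genes and genes of like name that are not paralogues, such as Acp1, Acp2 and Ctsd. Its genes moved in both directions. Of 14 tested 1 was higher and 6 lower in converted libraries, and 2 were higher and 7 lower in resident ones. In converted libraries 2 were higher when monocyte-derived library 1, monocyte-derived library 3, converted library 1 or resident library 2 was left out. Car12, a membrane-bound carbonic anhydrase, rose from 1.66 ± 0.805 CPM in monocyte-derived to 126.8 ± 32.3 in converted and 116.9 ± 1.18 in resident libraries, 76.3-fold and 70.4-fold (adjusted p = 3.75e-07 and 4.57e-07). The mitochondrial form Car5b fell from 71.8 ± 21.2 to 3.90 ± 0.487 and 5.26 ± 1.04 CPM (6.01e-07 and 1.15e-06). Car4 rose 3.94-fold in resident libraries (0.0129, and 0.0735 with no filter). Among the cathepsins Ctss fell 3.19-fold and 2.94-fold (6.17e-05 and 9.79e-05) and Ctsl 3.08-fold and 3.02-fold (0.00409 and 0.00450). For E-cadherin, the catenin gene Ctnnb1 had 195.1 ± 11.1, 239.8 ± 9.13 and 186.5 ± 4.41 CPM, with no call lower. Ctnnb1 was 1.23-fold higher in converted than monocyte-derived libraries (0.00610), and the Cdh1 repressor gene Zeb2 fell 1.46-fold and 1.67-fold (0.00646 and 0.00117). Of the 6 cadherin partners and repressors tested, 1 rose and 1 fell in converted libraries, which became 2 risen without monocyte-derived library 2 and 2 fallen without library 1; in resident libraries 1 fell.

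**Figure D5:**
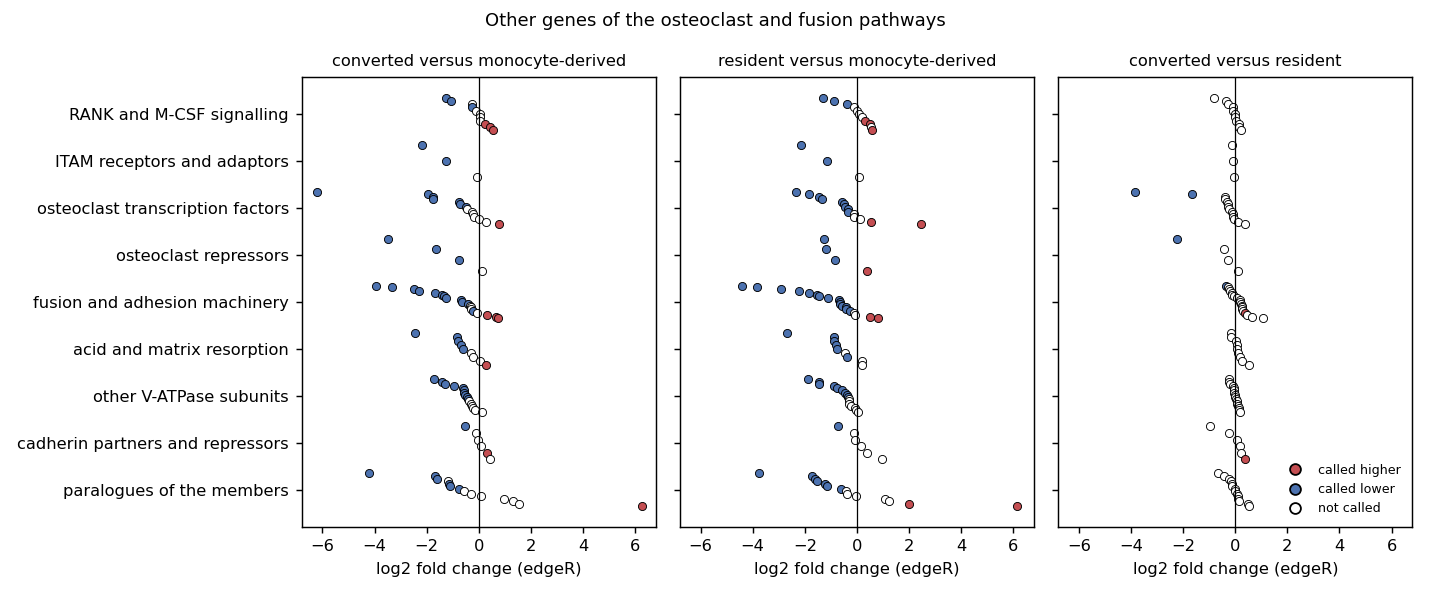
log2 fold changes (edgeR) of the tested genes of 9 pathway lists in the 3 comparisons, each point a gene, with called genes filled red (higher) or blue (lower) at an adjusted p under 0.05. Against the monocyte-derived group most called genes lie below 0 and Car12 is the highest, at 6.26 and 6.14, while few genes are called between converted and resident libraries.

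Between converted and resident libraries 4 of the 96 genes were lower in converted libraries and 2 higher, beside 4.26% and 1.82% of all genes. Fos was 3.199-fold lower (edgeR adjusted p = 0.00824) and Irf8 4.69-fold lower (0.000602), and Prdm1, named because the count is small, had 0.0528 ± 0.00322 beside 0.849 ± 0.445 CPM (0.00882). Irf8 and Prdm1 are also expressed in cells of the B lineage, and the 6 B-cell markers were all called lower in converted libraries; their part was not tested. The remaining gene, Cd47, was 1.30-fold lower (0.0285), which was 0.115 and 0.0959 without converted libraries 1 and 3, 0.133, 0.0604 and 0.133 without resident libraries 1, 2 and 3, 0.0546 with library sizes left unscaled and 0.0719 with the replicate block. Vav3 was 1.28-fold higher (0.0324), and no longer called when any 1 library was left out of the converted (0.0874, 0.0653 and 0.108) or resident libraries (0.154, 0.0541 and 0.151), with the replicate block (0.0647) or unscaled (0.0549). Ctnnb1 was 1.29-fold higher (0.0176), and 0.0751 and 0.0547 without converted libraries 1 and 2 and 0.0876, 0.0569 and 0.104 without resident libraries 1, 2 and 3. The 2 higher calls were 0 when converted library 2 or any resident library was left out, and 1 when converted library 1 or converted library 3 was. The highest-expressed genes of the lists with no call, Csf1r, Tyrobp, Rab7, Atp6ap1 and Ctsb, had adjusted p of 0.916, 0.738, 0.933, 0.977 and 0.987. Nfatc1 had 0.1995, and 0.0320 in the fit of both groups alone.

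The genes whose profile over the 9 libraries lay nearest to each of the 10 were found as the smallest root mean square difference between mean-centred log2(CPM + 0.5) values, among 9717 protein-coding genes with at least 5 CPM in some group. The distances are a description over 9 libraries that share their group structure. Dcstamp and Tm4sf19 were each other's nearest gene (0.329 log2 units), followed for Dcstamp by Ch25h (0.337), a cholesterol 25-hydroxylase, and for both by Wwc1. Ctsk lay nearest to Mmp12 (0.359), the macrophage elastase, with 261.3, 2139 and 1707 CPM in monocyte-derived libraries, and next to Atp6v0d2 (0.485). Gpnmb lay farthest from its nearest genes, Ctsk at 0.927 and Atp6v0d2 at 1.09. Acp5 and Car2 both lay nearest to Ccl4 (0.245 and 0.367), a chemokine. Ocstamp lay nearest to P2ry6 (0.267), a nucleotide receptor, and Itgb5 (0.294), an integrin subunit, and its nearest gene within the set, Dcstamp, was at 0.715. Cdh1 lay nearest to Uck2 (0.211) and Tarm1 (0.224), which had the same order of monocyte-derived libraries, with Uck2 at 159.5, 93.3 and 109.6 CPM. Tnfrsf11a lay nearest to Dtx2 (0.132) and Adam8 (0.138), the latter a member of the fusion and adhesion list.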

How the data were processed

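Total RNA of sorted peritoneal macrophages was sequenced in 9 libraries, made with the TotalScript low-input kit per the labels' protocols. The authors deposited whole-number read counts for Ensembl genes, made with TopHat2 2.1.0, HTSeq (no version given) and build GRCm38, per the submitters' processing notes; neither the annotation nor the strand setting is named there. Of 47729 identifiers, 47224 were matched to GENCODE mouse M21 (GRCm38) for symbols, coordinates and exon lengths. Lines naming no gene were left out: reads in no gene were 4.02% to 5.66% and ambiguous reads 4.47% to 4.68% of a library.

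Counts were filtered with filterByExpr (minimum count 10, total 15), scaled with TMM, and tested with all 9 libraries in 1 model by edgeR 4.0.16 (R 4.3.3; robust quasi-likelihood, 6 residual degrees of freedom). Calls were made at an adjusted p under 0.05. Alternatives were DESeq2 1.42.0, limma-voom (limma 3.58.1), other scalings, no filter, 2-group fits, the replicate number as a block, and each library left out. The 10 genes carry no test. The 10 genes and the gene lists were chosen with earlier results of these data known. Named pathway genes were, per list and comparison, up to 2 called genes per direction with the largest change, no overlap of libraries and at least 5 CPM, or the highest-expressed gene where none was called, plus Atp6v0d1, Tcirg1, Nfatc1, Mitf and Csf1r. Other genes, Prdm1 among them, were named after their values were seen. Replicate pairs were compared by chi-square, which divided by its degrees of freedom was 5.51 or more, above sampling noise; all 9 libraries were kept.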

Additional observations from a re-analysis of the deposited data

How the results depend on the processing

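The 10 genes kept their direction against the monocyte-derived group under every scaling, with medians in place of means, and with each library left out, and 10 of 10 stayed without overlap of libraries. Between converted and resident libraries, the 1 gene higher without overlap was 0 with library sizes left unscaled and 1 to 2 with a library left out, and the 3 lower were 3 to 5. Pathway genes higher in converted than in monocyte-derived libraries, 10 in the main test, were 6 with library sizes left unscaled, 6 in the 2-group fit and 5 to 10 with a library left out; the 49 lower were 41 to 60. Against resident libraries, the 2 higher in converted libraries were 1 with library sizes left unscaled, 1 with the replicate block, 4 in the 2-group fit, 4 by DESeq2 and 0 to 3 with a library left out, and the 4 lower were 11 in the 2-group fit. The cause of these shifts was not tested. Of the single pathway genes named, no value changed direction with a call. Leaving library sizes unscaled moved the median of all genes by at most 0.06 on the log2 scale.

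Libraries with the same replicate number did not deviate together (correlations from -0.09 to 0.07, and 6 of 18 best matches with their own number). No pairing by number was thus seen, and 3 libraries per group are too few to show its absence. With the replicate block 7 pathway genes were higher and 45 lower in converted, and 10 higher and 53 lower in resident than in monocyte-derived libraries. Depth limits the lowest values: 2 to 12 reads per group for Dcstamp, Ctsk and Ocstamp outside the monocyte-derived group place these genes near 0 but do not order converted and resident libraries.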
